A study of Mus musculus with 12 samples.

Results

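The genes described here are 40 genes of the Myc network and of ribosome biogenesis, listed by name for their roles, with earlier results of these data known. They were followed in cells of mouse acute myeloid leukaemia, whose total RNA was measured on 12 oligonucleotide arrays. Of the 40, 36 had a probe set annotated to that gene alone, and 35 were tested among 11223 genes. Max, Npm3, Gnl3 and Mybbp1a had no probe set named to them here, and the probe set of Ncl was dim, at 8.97 to 12.3 scaled intensity units, and was not tested. Each gene was represented by its probe set with the highest mean over the arrays.

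The cells belonged to 3 lines with 4 arrays each, all untreated and all grown in medium with fetal bovine serum and interleukin-3. The line called Trib1 expressed Trib1, a pseudokinase that promotes loss of C/EBPalpha protein. Lines TB13 and TB14 expressed Trib1 too, together with Bcl11a, a zinc finger transcriptional repressor. All 3 groups therefore carried Trib1, and the comparisons ask what differed in lines that also carried Bcl11a. How the lines were derived, and whether a line is a clone, was not stated in the labels used here. They do not tie the 4 arrays of a line to separate cultures. The p-values thus take in array-to-array spread alone, possibly technical, and none between lines.

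Myc is a transcription factor that binds DNA as a heterodimer with Max, preferentially at the E-box CACGTG, and Mxd1 is a repressor that competes for Max. Ribosome biogenesis begins in the nucleolus, where RNA polymerase I transcribes the ribosomal RNA precursor. Small nucleolar ribonucleoproteins then modify this RNA, and assembly factors cut, fold and join it with ribosomal proteins into the small and large subunits. Many of these genes are known targets of Myc, and in leukaemia cells high output of the pathway goes with growth.

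The deposited intensities were scaled between arrays by quantiles. A log2 change is the difference in log2(scaled intensity + 12.8), which understates the change of dim genes. A gene was called where the adjusted p of limma, by Benjamini-Hochberg over all genes tested, was under 0.05. The arrays of TB13 stood apart from the other 8. Their deposited values had medians of 25.5 to 25.9 and upper quartiles of 71.8 to 72.5, against medians of 20.8 to 21.4 and upper quartiles of 102 to 109 on the others. For the 18 hybridization controls, labelled transcripts added to the hybridization mix, the median log2 change against Trib1 was -0.93 in TB13 and 0.0010 in TB14. Directions in TB13 therefore depended on the scaling, and TB14 is described first. The 4 Bcl11a probe sets lay at 6.74 to 22.8 scaled units and the 2 Trib1 probe sets at 15.3 to 38.2 on all arrays. By mean, no Bcl11a probe set was higher than in Trib1 in both TB13 and TB14. Whether the Bcl11a and Trib1 probes match the introduced sequences was not stated in the labels, so they do not test the labels.

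Myeloid markers were present in all 3 lines. Of 11 myeloid marker genes with a probe set, all 11 exceeded their array's median on every array. Their summed intensity was 10371 to 10534 in Trib1, 10769 to 11027 in TB13 and 14450.1 to 14654 in TB14. The sum covers genes that went opposite ways. By mean, Mpo, Elane, Prtn3, Ctsg, Csf3r, Lyz2 and Kit were higher in TB14 than in Trib1, and Ptprc, Spi1, Cebpa and Itgam lower. In Trib1, TB13 and TB14, Mpo read 195 ± 8.85, 1044 ± 15.2 and 2216 ± 19.9 (SD, n = 4). Itgam read 224 ± 2.17, 30.3 ± 6.73 and 132 ± 8.60. Of the markers of other cells, 1 of 4 for B cells, 2 of 5 for T cells, 2 of 3 for erythroid cells and 2 of 7 for stroma and endothelium exceeded the median on every array. The summed erythroid level was 825 to 876 in Trib1, 1837 to 1986 in TB13 and 1429 to 1459 in TB14. For T cells the sum was 205 to 213, 288 to 365 and 142 to 149 in the same order, with Cd3e at 63.0 ± 0.656, 231 ± 33.7 and 59.0 ± 0.786 (SD, n = 4) and Cd3g at 65.6 ± 2.43, 13.2 ± 1.07 and 14.9 ± 1.04. The sums were for B cells 94.9 to 98.8, 114 to 134 and 93.1 to 99.4, and for stroma and endothelium 761 to 791, 528 to 577 and 569 to 614. Cd79a, Cd3e, Cd3d, Hba-a1, Epor, Pecam1 and Kdr were the markers of other cells above the median on every array. Klf1, Cd79b, Cdh5, Col1a1, Col1a2 and Col3a1 were above it on no array, while each of the 5 T cell markers exceeded it on at least 4 arrays. The part of these differences in the results below was not tested.

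Of the 29 tested genes of the set with a promoter window in RefSeq (build GRCm38.p6, 250 bases before to 50 after each start), 6 held the E-box CACGTG (20.7%), against 1039 of 9100 genes tested with a window (11.4%). The motif is its own reverse complement, so a search of either strand finds the same sites. A match describes these letters only, and no binding was measured. In TB14 against Trib1, as given below, Rrn3, Nme1 and Nop2 were called higher, Utp20 lower, and Pes1 and Wdr43 neither. Rrn3 is shown at length because it held a pair of E-boxes and was among the genes that moved most. The 250 bases before its start, chr16:13780449-13780698 on the plus strand, read 5′ to 3′ with the E-boxes in capitals:
Rrn3: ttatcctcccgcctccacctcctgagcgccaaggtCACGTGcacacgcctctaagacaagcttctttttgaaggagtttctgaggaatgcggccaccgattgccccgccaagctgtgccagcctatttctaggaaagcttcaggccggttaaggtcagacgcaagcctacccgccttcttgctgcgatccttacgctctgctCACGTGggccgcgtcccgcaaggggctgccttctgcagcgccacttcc

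The other 5 genes are shown by the E-box with up to 12 bases on each side, 5′ to 3′ on the strand of the gene, so that the bases flanking the motif can be compared. Nme1 had sites in 2 windows (chr11:93968037-93968066 and chr11:93968273-93968302, minus strand), and Nop2 (chr6:125131811-125131840, plus), Pes1 (chr11:3963965-3963994, plus), Utp20 (chr10:88826765-88826789, minus) and Wdr43 (chr17:71616220-71616249, plus) had 1 each. Max and Mybbp1a also held an E-box but had no probe set here.
Nme1, site 29 bases before the start: agcttgatacgcCACGTGggctcgcctttg
Nme1, site 18 bases before another start: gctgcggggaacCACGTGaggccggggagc
Nop2: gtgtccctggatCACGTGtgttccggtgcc
Pes1: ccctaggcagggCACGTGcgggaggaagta
Utp20: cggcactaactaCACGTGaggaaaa
Wdr43: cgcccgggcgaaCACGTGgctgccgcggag

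In TB14 most of the ribosome biogenesis genes were modestly higher than in Trib1, while Myc itself was lower. Of the 35 genes tested, 24 rose, 5 fell and 6 did not pass. Over all genes tested, 43.8% were called, 22.9% higher and 20.9% lower. The ranges of the 4 arrays did not overlap for 25 of the 35 genes in the upward direction and 5 in the downward, against 29% and 27% of all genes. The median log2 change was 0.12 over these genes and -0.0051 over all genes, and each TB14 array had a median between 0.11 and 0.13 above the Trib1 mean. The changes were small. With quantile scaling none of the 35 was called at 1.5-fold or more, against 6.87% of all genes, and under each of the other 4 scalings 1 was, Mxd1. The median spread within a line was low, with an SD of 0.043 on the log2 scale over the 35 genes and 0.075 over all genes.

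**Figure D1:**
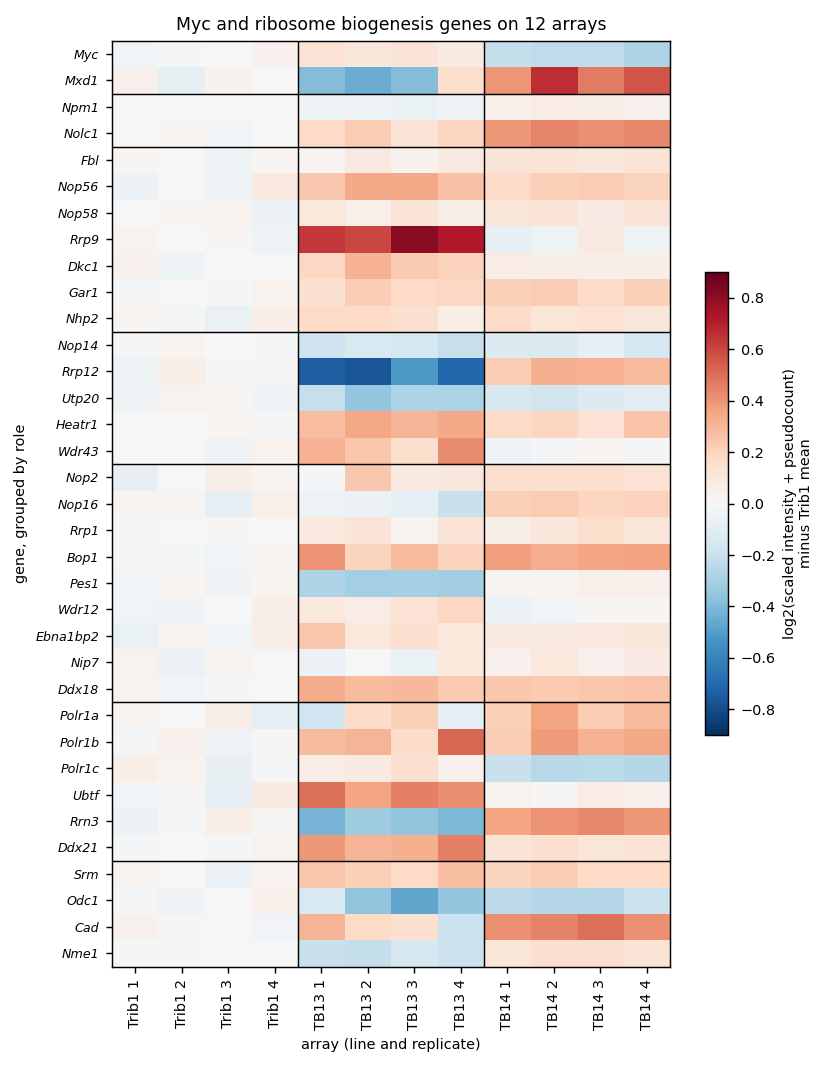
Log2(scaled intensity + pseudocount) of the 35 tested genes on each array, as the difference from the mean of the 4 Trib1 arrays. Rows are genes, black lines separate roles, and colours saturate at 0.9. TB14 columns are mostly red, with Myc, Nop14, Utp20, Polr1c and Odc1 blue, and the TB13 columns hold both colours.

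The factors of the Myc network went opposite ways in TB14. Myc read 1796, 1815, 1829 and 1883 scaled units on the Trib1 arrays and 1579, 1561, 1559 and 1510.3 on those of TB14. Every TB14 array was below every Trib1 array. The log2 change was -0.24 ± 0.018 (SE; adjusted p = 9.258e-09). Mxd1, its antagonist, read 61.7, 55.2, 61.3 and 59.3 in Trib1 and 82.2, 101.4, 87.0 and 93.8 in TB14. Again the groups did not overlap, with TB14 higher by a log2 change of 0.52 ± 0.109 (adjusted p = 0.000763). This was the largest change in size among the 35 genes in TB14. The other 2 Mxd1 probe sets, both dimmer, had log2 changes of 0.20 and 0.31. The third factor, Max, was not measured.

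Both tested nucleolar proteins rose in TB14. Nolc1, a phosphoprotein that chaperones small nucleolar ribonucleoproteins, read 551, 564, 544 and 555 in Trib1 and 729, 757, 742 and 753 in TB14. All 4 TB14 arrays lay above the Trib1 range, and the log2 change was 0.42 ± 0.025 (adjusted p = 4.15e-10). Its other 2 probe sets changed by 0.65 and 0.23. Npm1, nucleophosmin, an abundant nucleolar histone chaperone, changed by 0.05 (adjusted p = 0.0001808), from 4558 ± 13.9 to 4732 ± 36.4 (SD, n = 4). A further Npm1 probe set did not move (-0.00049), and the rise of the first was called in 2 of the 5 scalings tried.

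Of the 7 proteins of the box C/D and box H/ACA ribonucleoproteins, which mostly guide methylation and pseudouridylation of ribosomal RNA, 6 rose in TB14. Nop56, a core protein of the box C/D particles, went from 1025 ± 45.2 to 1181 ± 20.3 (SD, n = 4), a log2 change of 0.20. Gar1, of the box H/ACA particles, went from 588 ± 8.76 to 681 ± 11.5, a change of 0.21. Fbl, the methyltransferase fibrillarin, changed by 0.11, Nop58 by 0.10, Nhp2 by 0.13 and Dkc1, the pseudouridine synthase dyskerin, by 0.06. Dkc1 passed narrowly (adjusted p = 0.04962), although another of its probe sets changed by 0.25. Rrp9, which binds the U3 particle, was at 347 ± 8.09 in Trib1 and 342 ± 17.4 in TB14 and was not called (adjusted p = 0.772).

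Genes of small subunit assembly were divided in TB14, with 2 higher, 2 lower and 1 not called. Rrp12, an export and maturation factor, read 74.8, 80.7, 76.5 and 78.2 in Trib1 and 93.0, 99.8, 99.5 and 97.2 in TB14, a log2 change of 0.29 ± 0.063 with no overlap (adjusted p = 0.001307). Heatr1, a processome component also needed for transcription of ribosomal DNA, rose by 0.19, with -0.06 and 0.40 in its other probe sets. Nop14, a factor of 18S RNA maturation, fell from 358, 368, 362 and 359.9 to 331, 331, 344 and 325. Utp20, a large scaffold of the processome, fell from 279, 293, 291 and 279 to 258, 253, 261 and 266. Both fell with no overlap, by log2 changes of -0.12 ± 0.030 and -0.13 ± 0.037 (adjusted p = 0.003354 and 0.008129). Neither fall was called after calibration on the hybridization controls, and that of Nop14 was not called after median scaling. Wdr43 changed by -0.02 and was not called, and its other probe set changed by -0.18.

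Large subunit assembly factors rose or did not pass. Of 9 tested, 6 were higher in TB14 and none was called lower. Bop1, which forms the PeBoW complex with Pes1 and Wdr12, read 238, 234, 232 and 240.04 in Trib1 and 310.04, 299, 305 and 307 in TB14. The lines were apart on every array, with a log2 change of 0.35 ± 0.042 (adjusted p = 1.984e-06). Its partners did not pass in TB14, with changes of 0.04 for Pes1 and -0.01 for Wdr12 (adjusted p = 0.2165 and 0.7847). Ddx18, an RNA helicase, rose by 0.24, Nop16 by 0.21, Nop2, an RNA methyltransferase, by 0.14, Rrp1 by 0.11 and Ebna1bp2 by 0.09. Ddx18 had further probe sets at 0.19 and, dimmer, at -0.53. Ebna1bp2 was close to the threshold (adjusted p = 0.04878). Nip7 was higher on every TB14 array than on any Trib1 array, but by 0.06 only, and was not called (adjusted p = 0.1293). Dimmer second probe sets changed by -0.28 for Pes1, -0.33 for Nip7 and -0.05 for Ebna1bp2.

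Among RNA polymerase I subunits and regulators 4 of 6 rose in TB14 and 1 fell. Rrn3, the initiation factor TIF-IA that brings the polymerase to the promoter and whose E-boxes are printed above, read 144, 147, 156 and 151 in Trib1 and 195, 203, 206 and 199.9 in TB14. The groups were well apart, with a log2 change of 0.40 ± 0.045 (adjusted p = 1.453e-06). Polr1b, the second largest subunit, read 97.0, 101, 95.4 and 98.9 in Trib1 and 116, 132, 125 and 128 in TB14, a change of 0.32 ± 0.068 (adjusted p = 0.001016). Polr1a, the largest subunit, rose by 0.27 and Ddx21, a helicase that aids ribosomal RNA transcription and processing, by 0.12. Polr1c, a subunit shared with RNA polymerase III, read 467, 459, 428 and 443 in Trib1 and 389.8, 376, 378 and 374 in TB14. It fell on all 4 arrays, by a log2 change of -0.23 ± 0.032 (adjusted p = 1.21e-05), and its other probe set changed by -0.24. Ubtf, the upstream binding factor, was not called at 0.04 (adjusted p = 0.4295), and its probe sets disagreed, the other one changing by 0.56.

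The 4 growth metabolism genes all changed in TB14. Cad, which carries the first steps of pyrimidine synthesis, read 182, 175, 176 and 174 in Trib1 and 239, 246, 254 and 239 in TB14. The rise was 0.44 ± 0.075 with no overlap (adjusted p = 0.0001212), and another probe set above the filter changed by 0.54. Srm, spermidine synthase, rose by 0.20 and Nme1, a nucleoside diphosphate kinase, by 0.14. Odc1, ornithine decarboxylase, which makes the precursor of spermidine, went the other way. It read 187, 184, 188 and 195 in Trib1 and 158, 156, 156 and 163 in TB14, a log2 change of -0.24 ± 0.059 (adjusted p = 0.00323).

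**Figure D2:**
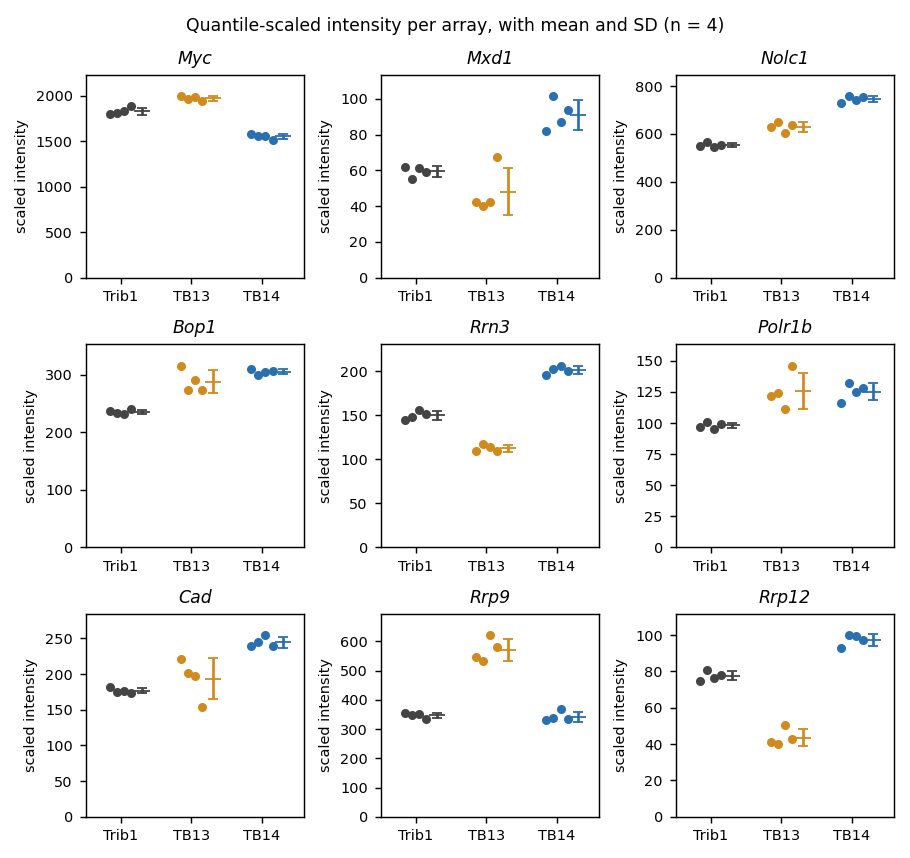
Quantile-scaled intensity of 9 genes on every array (points), with the mean and SD of the 4 arrays of a line (bar to the right of each group). The axes start at 0. Mxd1, Nolc1, Bop1, Rrn3, Polr1b, Cad and Rrp12 lie higher in TB14 than in Trib1, Myc lies lower, and Rrp9 differs in TB13.

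These directions in TB14 were little affected by how the arrays were scaled. Over 5 scalings (quantile, as deposited, median, cyclic loess and calibration on the hybridization controls), 18 of the 35 genes were called higher in all 5 and Myc, Polr1c and Odc1 lower in all 5. None of the 35 was called in opposite directions. How many of all genes tested kept or reversed a call over the 5 scalings was not counted for any comparison. The median over the 35 genes exceeded that over all genes by 0.096 to 0.206. The calls of Npm1, Nop2, Rrp1, Ebna1bp2, Dkc1 and Ddx21 were not made under every scaling. Probe sets of a gene did not always match. Of 25 other probe sets of 20 genes, 18 had the same sign in TB14 as the one used, with a median difference of 0.16, and in TB13 12 did, with a median difference of 0.32.

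**Figure D3:**
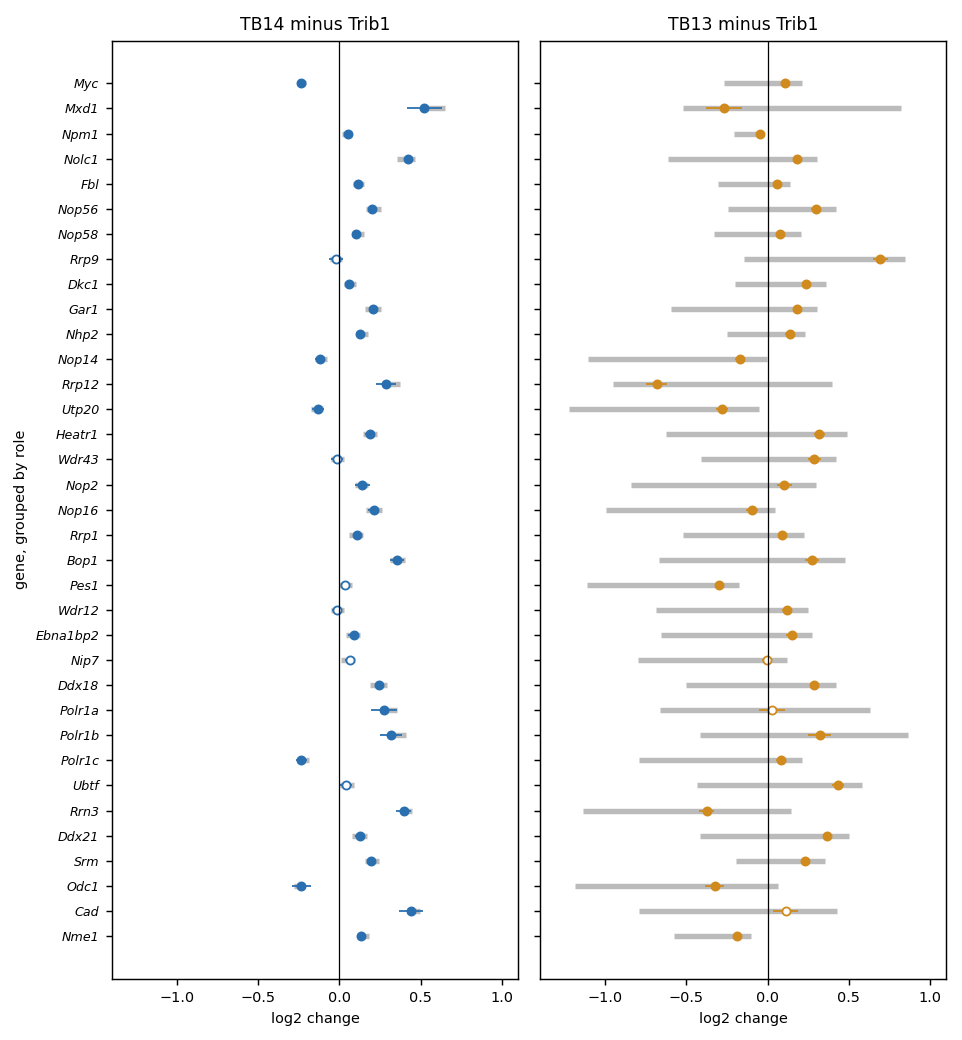
Log2 change against Trib1 of each gene in TB14 (left) and TB13 (right), with its SE. Filled points were called at an adjusted p under 0.05 (limma), open points were not, and grey bars span the 5 scalings. The grey bars are short in TB14 and cross 0 for most genes in TB13.

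In TB13 the direction of most of these genes was not settled. After quantile scaling 22 rose, 10 fell and 3 did not pass, against 80.3% of all genes called, 41.9% higher and 38.4% lower, and the median was 0.11 over these genes and 0.026 over all genes. The array ranges did not overlap for 19 genes upward and 8 downward, against 36.9% and 34.7% of all genes, and 2 were called at 1.5-fold or more, against 25.6%. As deposited, none rose and 32 fell, with medians of -0.42 and -0.39 (29% of all genes were called higher and 63.6% lower). After calibration on the hybridization controls 28 rose and 3 fell, with medians of 0.30 and 0.51 (73.3% and 11.9% of all genes). Of the 35 genes, 28 were called in opposite directions by different scalings, a count not made over all genes. Against the median of all genes the 35 stood 0.13 higher at most, with cyclic loess, and 0.21 lower at most, with calibration on the controls. TB13 and TB14 were compared with the same 4 Trib1 arrays.

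**Figure D4:**
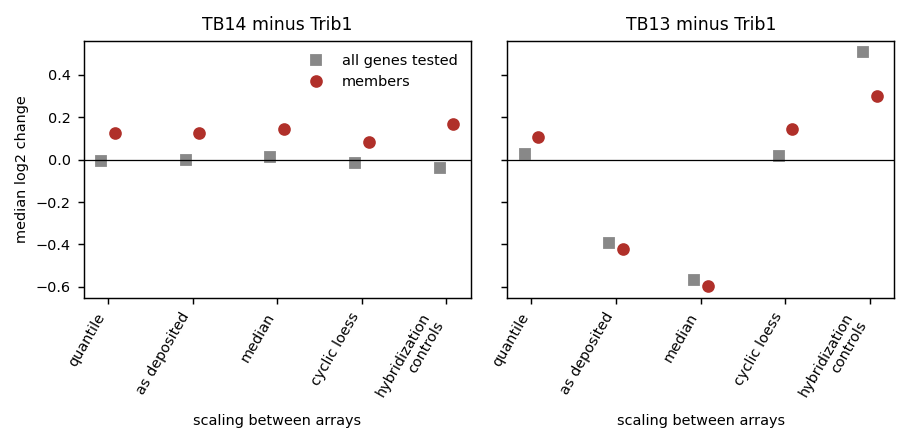
Median log2 change against Trib1 over the 35 genes (red circles) and over all genes tested (grey squares), under 5 scalings between arrays. In TB14 (left) the circles stay above the squares. In TB13 (right) both move together from -0.60 and -0.57 to 0.30 and 0.51.

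By role, quantile scaling put all 7 box C/D and box H/ACA proteins higher in TB13, with log2 changes from 0.05 for Fbl to 0.69 for Rrp9 and a median of 0.18. The array ranges of Nhp2 overlapped those of Trib1. Other probe sets changed by 0.22 for Fbl, 0.26 for Dkc1 and -0.18 for Nhp2. As deposited none of the 7 was called higher and 5 lower, against 29% and 63.6% of all genes. With median scaling none was higher and 7 lower, against 21.7% and 69.6%. Small subunit factors were divided, with Heatr1 and Wdr43 higher by 0.32 and 0.29 and Nop14, Rrp12 and Utp20 lower. Of the large subunit factors 6 were higher, among them Ddx18 at 0.29, Bop1 at 0.27 and Ebna1bp2 at 0.15, and Pes1 and Nop16 lower. Among RNA polymerase I genes 4 were higher and Rrn3 lower, and Polr1a was not called at 0.03. Nolc1 was higher by 0.18, Srm by 0.23, and Cad was not called at 0.11. Other probe sets changed by 0.03 and -0.22 for Heatr1, 0.19 for Wdr43, and -0.04 and -0.62 for Ddx18. For Ebna1bp2 the other changed by 0.93, and for Nolc1 by 0.31 and -0.18. Wdr12 was also among the 6 large subunit factors, at 0.12, but its other, dimmer probe set changed by -1.04. The other probe sets of Polr1a changed by 0.42 and -0.42. As deposited, the changes of Heatr1, Ddx18, Bop1 and Nolc1 were -0.45, -0.33, -0.50 and -0.44, and after calibration on the controls they were 0.49, 0.42, 0.48 and 0.31.

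A few genes kept a direction in TB13. Npm1, Pes1 and Nme1 were called lower under all 5 scalings. Pes1 read 664, 687, 660.1 and 686 in Trib1 and 552, 542, 547 and 540.3 in TB13, a log2 change of -0.30 ± 0.022 with quantile scaling (adjusted p = 2.057e-09) and -0.18 to -1.11 over the 5. Its other, dimmer probe set changed by -0.35. Nme1 read 1937, 1976, 1968 and 1954 in Trib1 and 1705, 1683, 1771 and 1713 in TB13, a change of -0.19 ± 0.017, although a second Nme1 probe set changed by 0.70. Npm1 changed by -0.04, and its second probe set by 0.20. For Nme1 and Npm1 the probe sets thus disagreed in TB13.

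Rrp9 and Rrp12 had the largest changes in TB13 after quantile scaling. Rrp9 read 355, 348, 349.8 and 336 in Trib1 and 546, 534, 620.1 and 581 in TB13, a log2 change of 0.69 ± 0.044 (adjusted p = 4.307e-10). All 4 TB13 arrays were far above the others. Its change was 0.03 as deposited and -0.14 with median scaling, and it exceeded the median of all genes by 0.34 to 0.71 under every scaling. Polr1b and Ubtf were the other 2 genes above the median of all genes under all 5. Rrp12 read 41.3, 40.3, 50.2 and 42.7 in TB13, below every Trib1 and TB14 array, a change of -0.68 ± 0.063 (adjusted p = 4.833e-08). It changed by 0.40 after calibration on the controls, and was below the median of all genes by 0.11 to 0.71. Below that median under all 5 were also Nop14, Utp20, Nop16, Pes1, Nip7, Rrn3, Odc1 and Nme1.

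The next largest changes in TB13 were of RNA polymerase I regulators and Odc1. Ubtf read 363, 373, 350.4 and 391 in Trib1, 526, 475, 509 and 498 in TB13 and 378, 372, 388 and 381 in TB14. TB13 was higher than Trib1 by 0.43 ± 0.036 (adjusted p = 1.505e-08), but its second probe set changed by -0.38 and the mean of both by 0.03 (adjusted p = 0.5494). Rrn3 read 109, 117, 114 and 109.7 in TB13, below the Trib1 range, a change of -0.38 ± 0.045 (adjusted p = 1.145e-06). Ddx21 read 509, 517, 512 and 527 in Trib1 and 681, 642, 648 and 711 in TB13, a change of 0.37 ± 0.030 (adjusted p = 8.657e-09), while its second probe set changed by -0.07. Odc1 read 170.4, 145, 133 and 146 in TB13, again below Trib1, with a change of -0.33 ± 0.059 (adjusted p = 8.832e-05). As deposited, the changes of Ubtf, Rrn3, Ddx21 and Odc1 were -0.26, -0.96, -0.24 and -1.01. After calibration on the controls they were 0.58, 0.15, 0.50 and 0.06.

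After quantile scaling Myc and Mxd1 moved in TB13 in the directions opposite to those in TB14. Myc read 1994, 1966, 1984 and 1937, above every Trib1 array, a log2 change of 0.11 ± 0.018 (adjusted p = 5.345e-05). The change was -0.10 as deposited and 0.18 after calibration on the controls. Mxd1 read 42.2, 40.1, 42.3 and 67.7, so that 3 arrays lay below the Trib1 range and 1 above it. Its change of -0.27 ± 0.109 passed (adjusted p = 0.03313), but the call was lost when any of 6 single arrays was left out, namely Trib1 arrays 1, 3 and 4 and TB13 arrays 1, 2 and 3 (adjusted p = 0.05986 to 0.1014). Without TB13 array 4 it was -0.42 (adjusted p = 3.6e-05). It was 0.82 after calibration on the controls.

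Between the lines that carry Bcl11a, 12 of the 35 genes were higher in TB14 than in TB13, 10 lower and 13 not called, against 80% of all genes called, 38.9% higher and 41.1% lower. Ranges did not overlap for 11 genes upward and 10 downward, against 35.3% and 36.9%, and 4 were called at 1.5-fold or more, against 24.9%. Rrp12 had a log2 difference of 0.97 ± 0.063, Mxd1 of 0.79 ± 0.109, Rrn3 of 0.77 ± 0.045, Rrp9 of -0.72 ± 0.044, Ubtf of -0.39 ± 0.036 and Myc of -0.34 ± 0.018. The largest adjusted p among these 6 was 5.046e-06. The array values given above did not overlap between the lines for any of the 6. Npm1, Nolc1, Nop16, Pes1, Rrn3 and Nme1 were called higher in TB14 under all 5 scalings, with differences for Rrn3 of 0.30 to 1.58. The second probe sets of Npm1 and Nme1 went the other way, at -0.20 and -0.61. For Ubtf the second probe set also went the other way, at 0.94, and the mean of both was 0.27. The difference in Mxd1 was -0.22 and that in Rrp12 -0.07 after calibration on the controls, those in Rrp9 and Myc were 0.16 and 0.07 after median scaling, and that in Ubtf was 0.32 as deposited.

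With quantile scaling Myc, Mxd1, Npm1, Rrp12, Nop16, Polr1c, Rrn3 and Nme1 were called in opposite directions in the 2 lines against Trib1. The difference was also called, for 8 of 35 genes against 11.6% of all genes. The TB13 direction was called in 2 of 5 scalings for Polr1c, in 3 for Myc and Mxd1, and in 4 for Rrp12, Nop16 and Rrn3. In TB13 the ranges of Mxd1, Nop16 and Polr1c overlapped those of Trib1. The other Polr1c probe set changed by -0.015 there, and those of Mxd1 by 0.02 and -0.28. With both lines weighted equally against Trib1, 20 genes were higher and 7 lower, against 70.3% of all genes called, 38.6% higher and 31.6% lower. All 8 arrays of both lines lay above the Trib1 range for 14 genes and below it for 3, against 10.1% and 15.5% of all genes. The box C/D and H/ACA proteins were all 7 called higher in that contrast, with Rrp9 at 0.34 and Nop56 at 0.25. Rrp9, however, changed by 0.69 in TB13 and was not called in TB14 (-0.02). The array ranges of Rrp9 and Nhp2 overlapped those of Trib1. As deposited 1 of the 7 was higher and 1 lower, and with median scaling none higher and 4 lower. As deposited, 2 of the 35 genes were higher in it and 19 lower, against 3182 and 6271 of the 11223 genes tested. With median scaling 2173 of all genes tested were higher in it and 6995 lower.

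Other genes of the same pathways gave a mixed picture in TB14. Their lists were assembled by role, and their counts are read against the 22.9% of all genes higher and 20.9% lower. In the rest of the Myc network 2 of 10 rose and 5 fell, with a median log2 change of -0.16. Mnt, a repressor that pairs with Max, fell from 289 ± 9.87 to 208 ± 2.31 (SD, n = 4), a change of -0.46. Mycn, a paralogue of Myc, fell from 2285 ± 46.8 to 1667 ± 10.7, a change of -0.45, and Mxd4, a relative of Mxd1, by -0.43. Myc thus fell together with Mycn, while Mxd1 rose and Mxd4 and Mnt fell.

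Further RNA polymerase I genes moved unevenly in TB14, with 2 of 8 higher, 1 lower and a median of -0.0064. Polr1e and Znrd1, both subunits of the polymerase, rose by 0.76 ± 0.074 and 0.65 ± 0.049. Polr1d, which like Polr1c is shared with RNA polymerase III, fell by 0.18 on the log2 scale. Of 39 further factors of the small subunit and the small nucleolar particles 16 rose and 5 fell (median 0.073). Utp4 and Mphosph10, parts of the processome, rose by 0.35 and 0.34, and Riok1, a kinase of late maturation, changed by -0.39. Of 42 further large subunit factors 14 rose and 6 fell (median 0.040), among them Nop53 at -0.43, Ftsj3 at 0.36 and Nol9 at 0.36.

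Of 23 further genes of polyamine and nucleotide synthesis, 15 rose and 3 fell in TB14, with a median of 0.16. Sms, spermine synthase, rose from 548 ± 6.07 to 808 ± 15.4 (SD, n = 4), a log2 change of 0.55, and Ppat, the first enzyme of purine synthesis, by 0.42. Sat1, which acetylates polyamines for breakdown and export, fell from 1086 ± 11.7 to 510.2 ± 6.70, a change of -1.07 ± 0.029 (adjusted p = 1.061e-14). In polyamine metabolism Srm and Sms were thus higher in TB14, and Odc1 and Sat1 lower.

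Cytosolic ribosomal protein genes were mostly called lower or not called. Of 65 tested, 2 rose and 30 fell in TB14, by small amounts, with a median of -0.022 and none at 1.5-fold. Rpl14 changed by -0.37, Rpl34 by -0.11 and Rps18 by -0.09. The number called lower was 45 as deposited, 39 with cyclic loess, 32 with median scaling and 12 after calibration on the hybridization controls. The shares of all genes called lower were 21.5%, 25.8%, 19.7% and 20.4% in the same order. Ribosomal protein genes have many near-identical copies in the genome. Which copies their probes share was not examined here, so their single values are uncertain.

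**Figure D5:**
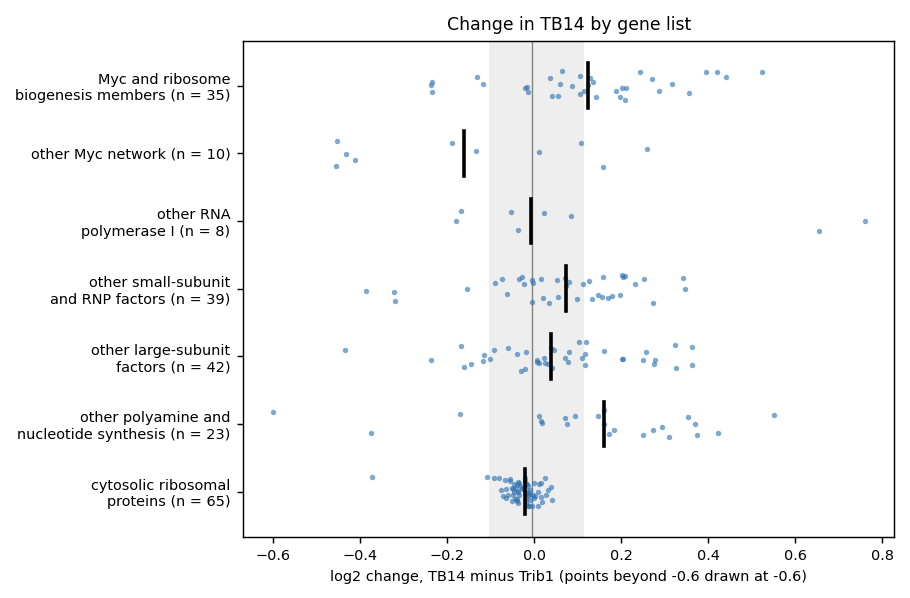
Log2 change in TB14 against Trib1 of each tested gene (points) in the set described here and in 6 further lists, with the median of each list as a black bar. The grey band spans the middle quartiles of all genes and the grey line is their median. The medians are 0.12 for the set, 0.16 for polyamine and nucleotide synthesis, -0.022 for ribosomal proteins and -0.16 for the rest of the Myc network.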

How the data were processed

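Probe set intensities (45141 per array, linear) were computed by the authors using MAS5, as the submitters' processing notes record without a version. Its scaling target and background correction are unknown here. All log2 values were computed here. The 104 control probe sets were not tested. The platform annotation gave 1 gene for 28898 probe sets, several for 551 and none for 15588. No symbol changed on updating. There were 0 columns of other samples.

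Values were quantile-scaled between arrays. A probe set was kept if it exceeded the median of its array on 4 or more of the 12 (17475 with 1 gene). After adding 12.8 (the 25th percentile of scaled values), log2 was taken. All arrays entered 1 linear model in limma 3.58.1 (R 4.3.3) with a variance trend. Correlations within a line were 0.9953 or above. An array has no read depth, so precision depends on how many arrays there are. On simulated data for TB14 against Trib1, 50 of 11223 genes were changed at each fold size. There the fit found 34% of changes of 1.1-fold, 64% of 1.2-fold and 100% of 1.5-fold, with 5 false calls. On the arrays 43.8% of genes were called in this comparison, and recovery with so many changes was not tested. Figures used matplotlib 3.10.9.

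The set and lists were chosen with earlier results of these data known. To be given in full were Myc, Max and Mxd1, the 6 largest called changes without overlap per contrast, and up to 6 called genes moving against the majority. Up to 3 genes per further list could be named (called, largest change in TB14), with Trib1 and Bcl11a as a check of the labels. Array values of Pes1 and Nme1 were added after they were seen. Alternatives covered the scaling, filter, pseudocount, variance model, replicate block, probe sets, threshold, samples in the fit and leaving out each array. Promoter sequences are from RefSeq (34 of the 40 genes matched).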

Additional observations from a re-analysis of the deposited data

Results flagged for a closer look

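On 2 of 105 sets of 4 arrays, a single array of a line lay far from the other 3, where chance gives about 1 in 20. Mxd1 read 67.7 on TB13 array 4 against 40.1 to 42.3 on the others. Npm1 read 4372 on TB13 array 3 against 4431 to 4438, a small difference in size.

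The 8 genes of the set called in opposite directions against Trib1 in the 2 lines differed between TB14 and TB13 (limma, quantile scaling, 4 arrays a line). The log2 difference, TB14 minus TB13, was -0.34 for Myc, 0.79 for Mxd1, 0.099 for Npm1, 0.97 for Rrp12, 0.31 for Nop16, -0.32 for Polr1c, 0.77 for Rrn3 and 0.32 for Nme1. Under all 5 scalings the difference was called the same way for Npm1, Nop16, Rrn3 and Nme1, but the second probe sets of Npm1 and Nme1 differed by -0.20 and -0.61. The 2 lines share the Trib1 arrays as their control.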

How the results depend on the processing

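For TB14 against Trib1 every setting kept the directions of Myc, Mxd1, Cad, Nolc1, Rrn3, Bop1, Polr1b, Nop14, Utp20, Polr1c and Odc1. The sign differed among scalings for Rrp9, Wdr43, Wdr12 and Pes1, none of them called, with changes of -0.058 to 0.017, -0.049 to 0.029, -0.052 to 0.028 and -0.0061 to 0.079. Calibration on the hybridization controls left 3 genes of the set lower, against 20.4% of all genes. With calibration and cyclic loess the median over the set minus that over all genes was 0.206 and 0.096. A 1.5-fold threshold left 771 genes, 0 of the set higher and 0 lower. For TB13 against Trib1 this threshold left 2874 genes, with 1 of the set higher and 1 lower, for TB14 against TB13 2793, 3 and 1, and for both lines against Trib1 1125, 0 and 0.

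For TB13 against Trib1, 0 of the set were higher and 32 lower as deposited, 0 and 35 with median scaling, and 3 lower after calibration on the controls. Of all genes tested, 29% were higher and 63.6% lower as deposited, and 21.7% and 69.6% with median scaling. After calibration 11.9% were lower. The set's median minus that of all genes was -0.030 as deposited and with median scaling, 0.13 with cyclic loess and -0.206 with calibration. It was 0.063 to 0.087 leaving out an array. As deposited the log2 change was -0.095 for Myc, -0.26 for Ubtf and -0.24 for Ddx21, and with median scaling -0.27 for Myc, -0.14 for Rrp9, -0.43 for Ubtf and -0.41 for Ddx21. Mxd1 was at 0.0011 with cyclic loess. Calibration gave 0.82 for Mxd1, 0.40 for Rrp12, 0.15 for Rrn3 and 0.064 for Odc1.

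For TB14 against TB13, 33 of the set were higher and 1 lower as deposited, 35 and 0 with median scaling, 17 lower with cyclic loess, and 6 and 17 with calibration. Of all genes tested, 63.4% were higher and 29.4% lower as deposited, and 70.1% and 21.5% with median scaling. The shares were 36.5% and 41.5% with cyclic loess, and 13.6% and 70.6% with calibration. The median difference from all genes was 0.17 as deposited and with median scaling, -0.023 with cyclic loess, 0.399 with calibration and 0.056 with no filter. It was 0.025 to 0.049 leaving out an array. Ubtf was at 0.32 as deposited, 0.51 with median scaling and 0.27 with the mean of its probe sets. With median scaling Myc was at 0.065 and Rrp9 at 0.16, and with calibration Mxd1 at -0.22 and Rrp12 at -0.067. For both lines against Trib1, 2 were higher and 19 lower as deposited, 0 and 29 with median scaling, and 1 lower with calibration. Of the 11223 genes tested, 3182 were higher and 6271 lower in it as deposited, and 2173 and 6995 with median scaling.

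Of the further lists in TB14, the RNA polymerase I list had 2 lower under each of the other 4 scalings, and the small subunit list 3 lower with calibration. The ribosomal protein list had 0 higher as deposited and with calibration, 1 higher with cyclic loess and 12 lower with calibration. The rest of the Myc network had 1 higher with cyclic loess. Over all genes 27% were called higher as deposited, 22.4% with cyclic loess and 24.2% with calibration. The share called lower was 19.7% to 25.8% over these 4 scalings, and 20.4% with calibration. The causes of these differences were not tested. Replicate numbers did not pair the arrays. The 12 same-numbered pairs correlated at -0.091 to 0.099, and 3 arrays matched their own number best. With the number as a block 22 of the set were higher and 5 lower in TB14 against Trib1, of 4823 genes called, and no count moved by over 1.5 times.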
